A study of Mus musculus with 8 samples.

Results

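Immediate early genes were followed in the kidney cortex of mice that age at different rates. The 10 genes Fos, Fosb, Jun, Junb, Egr1, Egr2, Nr4a1, Ier2, Ier3 and Atf3 were taken by name from the 36610 gene names on the array, through every probe that was not a control. The rule held 14 probes, and they were taken by gene name with no cut on a measured value. The list of names was itself chosen with earlier results of these data known. Messenger RNA was measured in cortical tissue of male mice of the senescence-prone strain SAMP1 and of SAMR1, the senescence-resistant strain that served as its control. The groups were SAMR1 at 10 weeks (replicates 1 and 4), SAMR1 at 50 weeks (replicates 6 and 12), SAMP1 at 10 weeks (replicates 4 and 5) and SAMP1 at 50 weeks (replicates 1 and 4), with n = 2 mice in each and 1 array per mouse. The labels name no transgene and no treatment. Both strains are inbred lines with separate breeding histories, so a strain difference covers every locus at which they differ.

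Immediate early genes are transcribed within minutes of a stimulus, without new protein synthesis, from kinase cascades that act on factors already bound at their promoters. Serum response factor acts through the CArG box and cAMP response element binding protein through cAMP response elements. In kidney, as in other organs, these genes respond to growth factors, stretch, ischaemia and handling of the tissue, and their messenger RNAs are short-lived. Fos and Jun family proteins pair to form the AP-1 transcription factor, Egr proteins are zinc finger factors, Nr4a1 is an orphan nuclear receptor, and the Ier genes encode small regulators of signalling and survival.

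Promoter sequences of 5 members are shown as a description, and no difference between groups was tested against them. Nr4a1 and Ier3 passed the test of a strain or age difference, and Fos and Jun, partners in AP-1, differed strongly between the older SAMP1 mice. Fosb also passed for strain at 50 weeks but is not shown. Egr2 alone of the 8 members searched had a CArG box within the 250 bases. Each is the 250 bases before the RefSeq transcription start on GRCm38.p6, read 5′ to 3′ on the strand of the gene. Capitals mark TGACG, the core of the cAMP response element, in either orientation (CGTCA on the strand shown), and the CArG box in Egr2.
Nr4a1: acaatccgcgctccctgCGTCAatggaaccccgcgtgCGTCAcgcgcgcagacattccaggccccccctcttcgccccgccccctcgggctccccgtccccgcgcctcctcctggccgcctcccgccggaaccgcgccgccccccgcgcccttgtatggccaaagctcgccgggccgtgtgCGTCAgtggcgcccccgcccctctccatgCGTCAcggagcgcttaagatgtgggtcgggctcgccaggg
Ier3: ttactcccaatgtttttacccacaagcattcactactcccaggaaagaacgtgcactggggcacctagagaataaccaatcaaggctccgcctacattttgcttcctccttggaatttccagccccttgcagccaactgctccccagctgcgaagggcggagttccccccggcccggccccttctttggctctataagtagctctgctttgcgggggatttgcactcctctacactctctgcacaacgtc
Fos: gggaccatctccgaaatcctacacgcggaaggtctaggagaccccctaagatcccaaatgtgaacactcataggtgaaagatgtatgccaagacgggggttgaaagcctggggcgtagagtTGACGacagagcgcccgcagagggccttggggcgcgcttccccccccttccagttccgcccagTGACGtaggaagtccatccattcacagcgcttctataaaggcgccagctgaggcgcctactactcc
Jun: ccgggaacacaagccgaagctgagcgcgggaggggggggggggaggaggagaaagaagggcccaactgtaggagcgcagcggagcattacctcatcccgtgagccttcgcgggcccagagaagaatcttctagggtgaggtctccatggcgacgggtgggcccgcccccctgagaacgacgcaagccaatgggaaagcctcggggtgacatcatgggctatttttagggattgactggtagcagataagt
Egr2: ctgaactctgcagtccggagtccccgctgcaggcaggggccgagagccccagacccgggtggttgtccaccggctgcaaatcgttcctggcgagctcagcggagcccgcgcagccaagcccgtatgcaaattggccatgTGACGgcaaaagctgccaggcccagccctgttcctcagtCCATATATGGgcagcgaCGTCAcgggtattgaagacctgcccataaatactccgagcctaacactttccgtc

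The windows lie at chr15:101266596-101266845 (plus strand) for Nr4a1, chr17:35821463-35821712 (plus) for Ier3, chr12:85473640-85473889 (plus) for Fos, chr4:95052223-95052472 (minus) for Jun and chr10:67537619-67537868 (plus) for Egr2. Egr2 has 5 start sites in the table, and the one shown was chosen after the search because its window held both motifs. Windows were matched by symbol for 8 of the 10 members, and Egr1 and Ier2 were not searched and are named only. Windows on chromosome 18, where Egr1 lies, were left out for the members but not for the shares of all windows. The counts over 8 members therefore say nothing of Egr1. Bases further upstream were not searched for any member. TGACG was searched on both strands and stood in 6 of the 8 members, namely Fos, Fosb, Junb, Egr2, Nr4a1 and Atf3, against 17.8% of 32851 promoter windows of the same length. Nr4a1 had 4 such matches, Fos had 2, and Ier3 and Jun had 0. The CArG box, CC then 6 bases of A or T then GG, stood in 1 of 8 members (Egr2) and in 1.47% of all windows. The full cAMP response element TGACGTCA, which contains TGACG, stood in 0 of 8 and 1.55%, and the AP-1 site TGANTCA in 0 of 8 and 6.75%. A member was counted when any of its windows matched, and Egr2 had 5, whereas the percentages are shares of single windows. A match describes letters in these windows and does not show a bound site.

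Levels are log2 signals with the 75th percentile of the same array subtracted, so that a level of 0 equals that percentile and a difference of 1 is a doubling. They can be compared between arrays for 1 gene and not between genes. The share of spots well above background was 61.4% to 64.4% per array. Markers of the labelled tissue were present, with all 10 proximal tubule, 6 podocyte and 8 thick ascending limb and distal tubule genes well above background on every array. The 8 collecting duct and 5 inner medulla markers were also well above background on every array. Of the 6 adipocyte and 6 adrenal markers, 2 and 3 were bright enough to be tested. The probe that represents each member was well above background on 8 of 8 arrays. Differences were tested with limma, p-values were adjusted over 22658 genes by the method of Benjamini and Hochberg, errors beside a difference are limma standard errors, and the threshold was 0.05. How the mice were killed and how long tissue stood before RNA was taken are not given in the sources used here. Arrays of 10 weeks and of 50 weeks lay in different columns of the slide, and the effects of age and of column cannot be told apart. In whole tissue, more cells of a type and more RNA per cell cannot be told apart either.

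**Figure D1:**
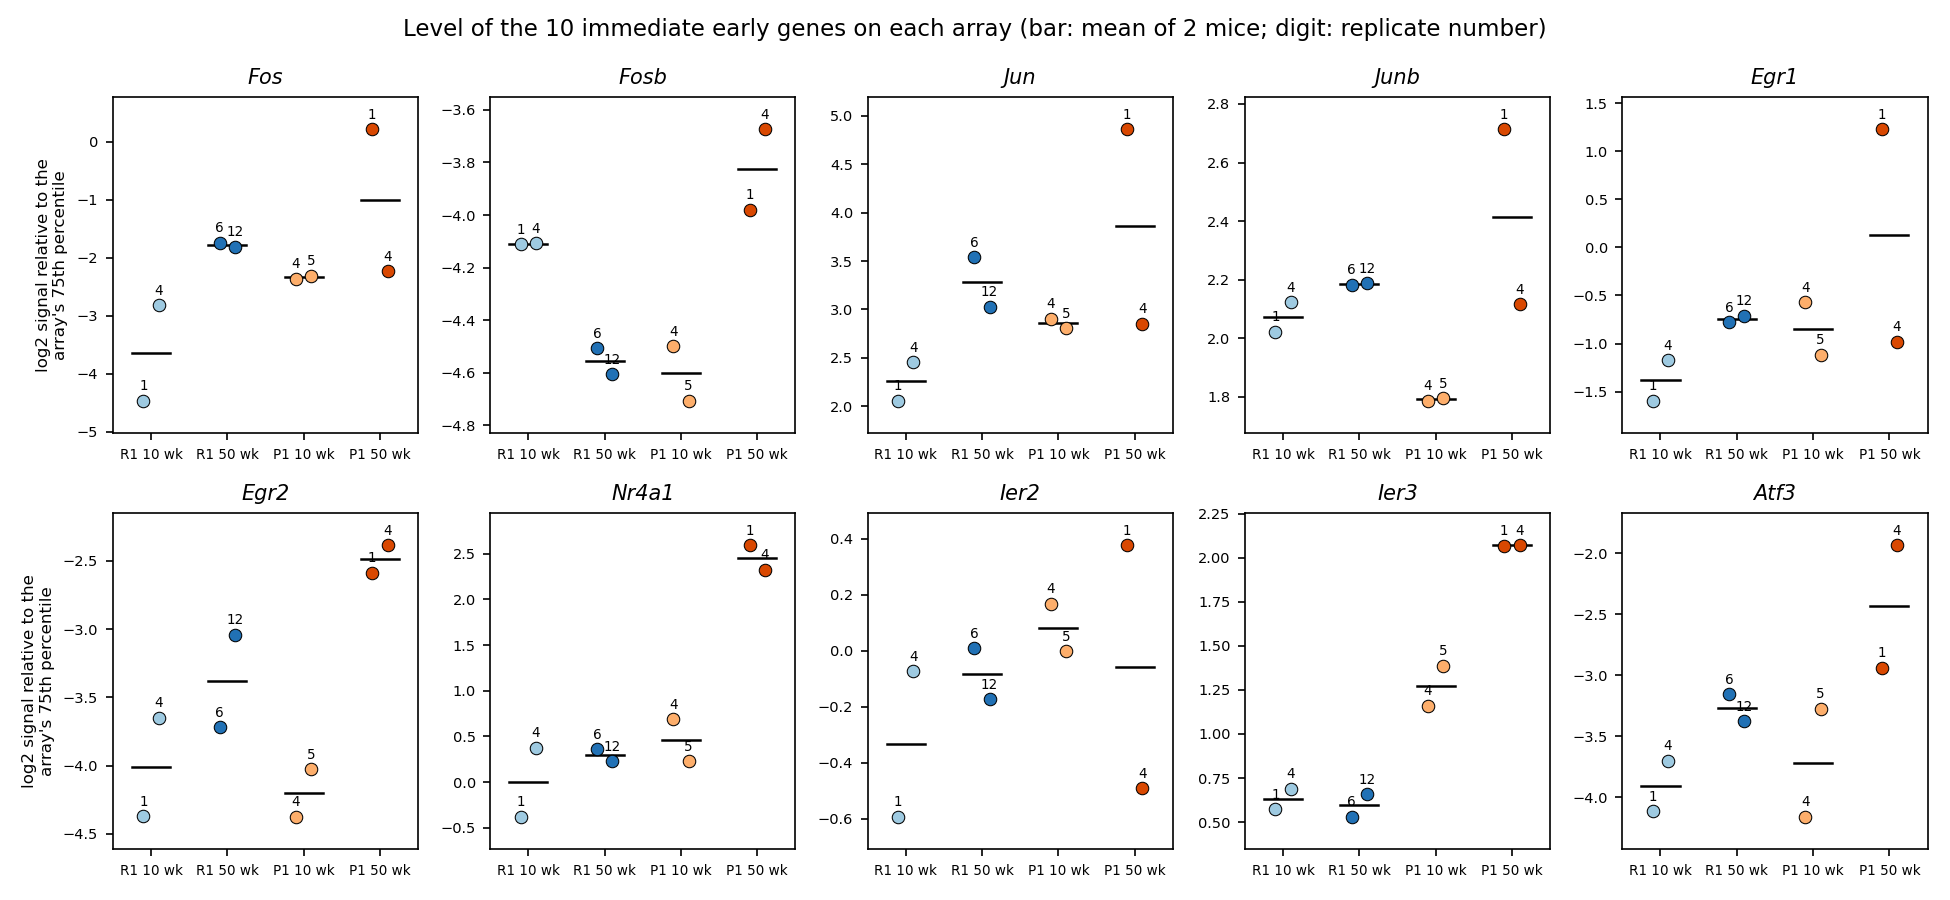
Level of each member on each of the 8 arrays, in log2 units above the 75th percentile of that array (y axis, a separate scale per gene), by group (R1 is SAMR1, P1 is SAMP1). Dots are single mice with their replicate number and bars are the mean of 2 mice. Nr4a1 and Ier3 are high in both SAMP1 mice at 50 weeks, whereas Fos, Jun and Egr1 are high in replicate 1 and not in replicate 4.

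Fos encodes the partner that makes the most active AP-1 dimers with Jun proteins. It stood at -4.47 and -2.82 in SAMR1 at 10 weeks, -1.74 and -1.81 in SAMR1 at 50 weeks, -2.36 and -2.31 in SAMP1 at 10 weeks, and 0.22 and -2.23 in SAMP1 at 50 weeks. The 4 arrays of 50 weeks all lay above the 4 of 10 weeks, which held for 1 of 10 members and, in this direction, for 3.25% of all genes tested. SAMP1 replicate 1 was the highest array, 5.48-fold above its group mate, and that mate lay close to the younger SAMP1 mice. The age change of Fos was 1.33 ± 0.839 in SAMP1 (adjusted p = 0.615) and 1.87 ± 0.839 in SAMR1 (adjusted p = 0.434). Neither passed, and the 95% intervals ran from -0.70 to 3.36 and from -0.17 to 3.90.

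Jun encodes the main partner of Fos, and it can also pair with itself. Its levels were 2.06 and 2.46 in SAMR1 at 10 weeks, 3.54 and 3.03 in SAMR1 at 50 weeks, 2.90 and 2.81 in SAMP1 at 10 weeks, and 4.86 and 2.85 in SAMP1 at 50 weeks. As for Fos, replicate 1 of SAMP1 at 50 weeks stood alone, 4.03-fold above replicate 4, which lay between the younger SAMP1 mice. In SAMR1 the older and younger mice did not overlap. The age change was 1.00 ± 0.604 in SAMP1 (adjusted p = 0.599) and 1.03 ± 0.604 in SAMR1 (adjusted p = 0.553). Without replicate 1 the SAMP1 change of Jun was -0.0023.

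Junb, whose protein can replace Jun in AP-1 and often limits it, varied less. It was at 2.02 and 2.12 in SAMR1 at 10 weeks, 2.18 and 2.19 in SAMR1 at 50 weeks, 1.79 and 1.80 in SAMP1 at 10 weeks, and 2.71 and 2.12 in SAMP1 at 50 weeks. Both older SAMP1 mice lay above both younger ones, and replicate 1 was again the higher. The age change of Junb in SAMP1 was 0.62 ± 0.189 (adjusted p = 0.305). A dimmer probe of Junb, well above background on 8 of 8 arrays, gave 0.56 ± 0.381 for the same change in a fit of all 35375 probes (adjusted p = 0.68) and also stood highest in replicate 1, at -3.14.

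Fosb encodes a Fos relative whose product accumulates under repeated stimulation in other tissues. Its level was -4.11 and -4.11 in SAMR1 at 10 weeks, -4.51 and -4.61 in SAMR1 at 50 weeks, -4.50 and -4.71 in SAMP1 at 10 weeks, and -3.98 and -3.67 in SAMP1 at 50 weeks. Here replicate 4 was the higher of the older SAMP1 mice, and both lay above every other array. At 50 weeks Fosb was higher in SAMP1 by 0.73 ± 0.134, or 1.66-fold (adjusted p = 0.0326). All arrays were dim for this gene, with processed signals of 7.93 to 15.6. The difference was 0.72 (adjusted p = 0.0381) with quantile normalization alone, and 0.10 (adjusted p = 0.334) with normexp background correction, an offset of 50 and quantile normalization together. A further Fosb probe was well above background on 0 of 8 arrays. The strain call held without replicate 1 of SAMP1 at 50 weeks (0.88, adjusted p = 0.0393) and was lost without any 1 of the other 7 arrays (adjusted p = 0.0539 to 0.128).

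Atf3, a stress-induced member of the ATF family that mostly represses, was at -4.11 and -3.70 in SAMR1 at 10 weeks, -3.16 and -3.38 in SAMR1 at 50 weeks, -4.16 and -3.28 in SAMP1 at 10 weeks, and -2.94 and -1.94 in SAMP1 at 50 weeks. The older SAMP1 mice were the highest 2 of the 8 arrays, and replicate 4 exceeded replicate 1 by 2.00-fold, the reverse of Fos and Jun. The age change in SAMP1 was 1.28 ± 0.408 (adjusted p = 0.337) and the strain difference at 50 weeks 0.83 ± 0.408 (adjusted p = 0.342). Atf3 was dim, with processed signals of 12.1 to 52.1. Over all alternatives the age change in SAMP1 ran from 0.43 to 1.78 and the strain difference at 50 weeks from 0.31 to 1.33.

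Egr1, the prototype of the zinc finger members and a direct target of growth factor signalling, stood at -1.59 and -1.17 in SAMR1 at 10 weeks, -0.78 and -0.71 in SAMR1 at 50 weeks, -0.57 and -1.12 in SAMP1 at 10 weeks, and 1.23 and -0.98 in SAMP1 at 50 weeks. It followed the pattern of Fos and Jun, with replicate 1 of the older SAMP1 mice 4.63-fold above replicate 4 and replicate 4 inside the range of the younger SAMP1 mice. The age change in SAMP1 was 0.97 ± 0.66 with both mice (adjusted p = 0.639) and -0.14 without replicate 1.

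Egr2, a relative best known from nerve myelination and T cell tolerance, was at -4.37 and -3.65 in SAMR1 at 10 weeks, -3.72 and -3.04 in SAMR1 at 50 weeks, -4.37 and -4.03 in SAMP1 at 10 weeks, and -2.59 and -2.39 in SAMP1 at 50 weeks. Unlike Egr1, it was high in both older SAMP1 mice, which differed by 0.20. The age change in SAMP1, 1.71 ± 0.312 or 3.28-fold, did not pass (adjusted p = 0.0877). Nor did the strain difference at 50 weeks of 0.89 ± 0.312 (adjusted p = 0.192). Egr2 was also dim, with processed signals of 10.4 to 38.2. Over all alternatives the age change in SAMP1 ran from 0.46 to 1.89 and the strain difference at 50 weeks from 0.28 to 1.23.

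Nr4a1 encodes a nuclear receptor without a known natural ligand, whose activity follows its amount, and which is induced by antigen receptors in lymphocytes and by hormones in other cells. It was measured by a probe at chr15:101105071-101105130 of mm9. The levels were -0.38 and 0.38 in SAMR1 at 10 weeks, 0.36 and 0.23 in SAMR1 at 50 weeks, 0.69 and 0.23 in SAMP1 at 10 weeks, and 2.59 and 2.32 in SAMP1 at 50 weeks. Both older SAMP1 mice lay far above the other 6 arrays, which overlapped one another. Nr4a1 rose with age in SAMP1 by 2.00 ± 0.276, or 4.00-fold (adjusted p = 0.0358), and at 50 weeks it was higher in SAMP1 than in SAMR1 by 2.16 ± 0.276, or 4.48-fold (adjusted p = 0.00932). In SAMR1 its age change was 0.30 ± 0.276 (adjusted p = 0.71). The strain difference at 50 weeks was 2.03 (adjusted p = 0.049) without SAMP1 replicate 1 and 2.30 (adjusted p = 0.043) without SAMP1 replicate 4. It did not pass without SAMR1 50-week replicate 6 (2.23, adjusted p = 0.0517) or 12 (2.10, adjusted p = 0.0621). The age call in SAMP1 held without either SAMR1 mouse of 10 weeks and was lost without any 1 of the other 6 arrays, with differences of 1.77 to 2.23 and adjusted p = 0.0945 to 0.145.

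Ier3 encodes a short protein that modulates ERK and NF-kappaB signalling and cell survival, and its probe lies at chr17:35959528-35959587 of mm9. Its levels were 0.57 and 0.69 in SAMR1 at 10 weeks, 0.53 and 0.66 in SAMR1 at 50 weeks, 1.16 and 1.39 in SAMP1 at 10 weeks, and 2.07 and 2.07 in SAMP1 at 50 weeks. All 4 SAMP1 arrays lay above all 4 SAMR1 arrays, which held for 1 of 10 members and, in this direction, for 7.09% of all genes tested. Ier3 was higher in SAMP1 by 0.64 ± 0.113, or 1.56-fold, at 10 weeks (adjusted p = 0.0374) and by 1.48 ± 0.113, or 2.78-fold, at 50 weeks (adjusted p = 0.0015). It rose with age in SAMP1 by 0.80 ± 0.113 (adjusted p = 0.0381) and was at -0.04 ± 0.113 in SAMR1 (adjusted p = 0.93). The strain difference at 50 weeks passed without any 1 of the 8 arrays (1.41 to 1.54, adjusted p = 0.00388 to 0.0157). The strain difference at 10 weeks and the age rise in SAMP1 were each lost without any 1 of the 8 arrays, with adjusted p = 0.0589 to 0.195 and 0.0785 to 0.206.

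Ier2, a nuclear protein of the same naming series but of another family, did not pass in any of the 6 comparisons. It stood at -0.59 and -0.07 in SAMR1 at 10 weeks, 0.01 and -0.17 in SAMR1 at 50 weeks, 0.17 and -0.0027 in SAMP1 at 10 weeks, and 0.38 and -0.49 in SAMP1 at 50 weeks. The older SAMP1 mice were among the extremes on either side, and their range enclosed the younger ones. Its strain difference at 50 weeks was 0.03 ± 0.305 (adjusted p = 0.977), with a 95% interval from -0.71 to 0.76. Another Ier2 probe was well above background on 5 of 8 arrays.

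The members were chosen with earlier results of these data known. Shares and medians over all genes, here and below, are therefore given as description and do not test the list. Counted over the members, 2 of 10 rose with age in SAMP1, Nr4a1 and Ier3, where 0.887% of all genes rose and 0.137% fell. In SAMR1 0 of 10 passed in limma, beside 0.821% of all genes that rose and 0.154% that fell, and 1 of 10 had an unadjusted p under 0.05 beside 12.4% of all genes. For age averaged over both strains Nr4a1 alone passed, at 1.15 ± 0.195 (adjusted p = 0.0463), where 1.48% of all genes rose and 0.578% fell. For strain, 1 of 10 was higher in SAMP1 at 10 weeks (Ier3, with 2.01% of all genes higher and 1.46% lower) and 3 of 10 at 50 weeks (Nr4a1, Ier3 and Fosb, with 3.27% higher and 2.23% lower), and 0 members were lower at either age. With haemoglobin level as a covariate 0 members passed in limma in any of the 6 comparisons, and calls over all genes became fewer too. For age in SAMP1 0.203% of all genes passed, where 1.02% did without it, and for strain at 50 weeks 0.41% against 5.51%. The 7 differences that had passed kept their direction. They were 2.05 ± 0.376 for Nr4a1 and 0.68 ± 0.13 for Ier3 with age in SAMP1, and 1.11 ± 0.27 for Nr4a1 with age averaged over strains. With strain they were 0.82 ± 0.154 for Ier3 at 10 weeks, and 1.12 ± 0.178 for Fosb, 2.27 ± 0.55 for Nr4a1 and 1.23 ± 0.19 for Ier3 at 50 weeks.

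The median difference of the members was 0.99 with age in SAMP1 and 0.46 with age in SAMR1, 0.44 for strain at 10 weeks and 0.80 for strain at 50 weeks. The corresponding medians of all genes tested were -0.03, -0.02, 0 and -0.02. Arrays of the compared groups did not overlap for 7 members higher at 50 weeks in SAMP1 (20.8% of all genes) and for 5 in SAMR1 (19.7%), where 1 member, Fosb, was lower (22.6%). For strain they did not overlap for 5 members higher in SAMP1 at 10 weeks (24% of all genes), 2 lower, Fosb and Junb (24.9%), and 5 higher at 50 weeks (21.7%). The age and strain comparisons share groups, so their values are given side by side and are not independent.

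**Figure D2:**
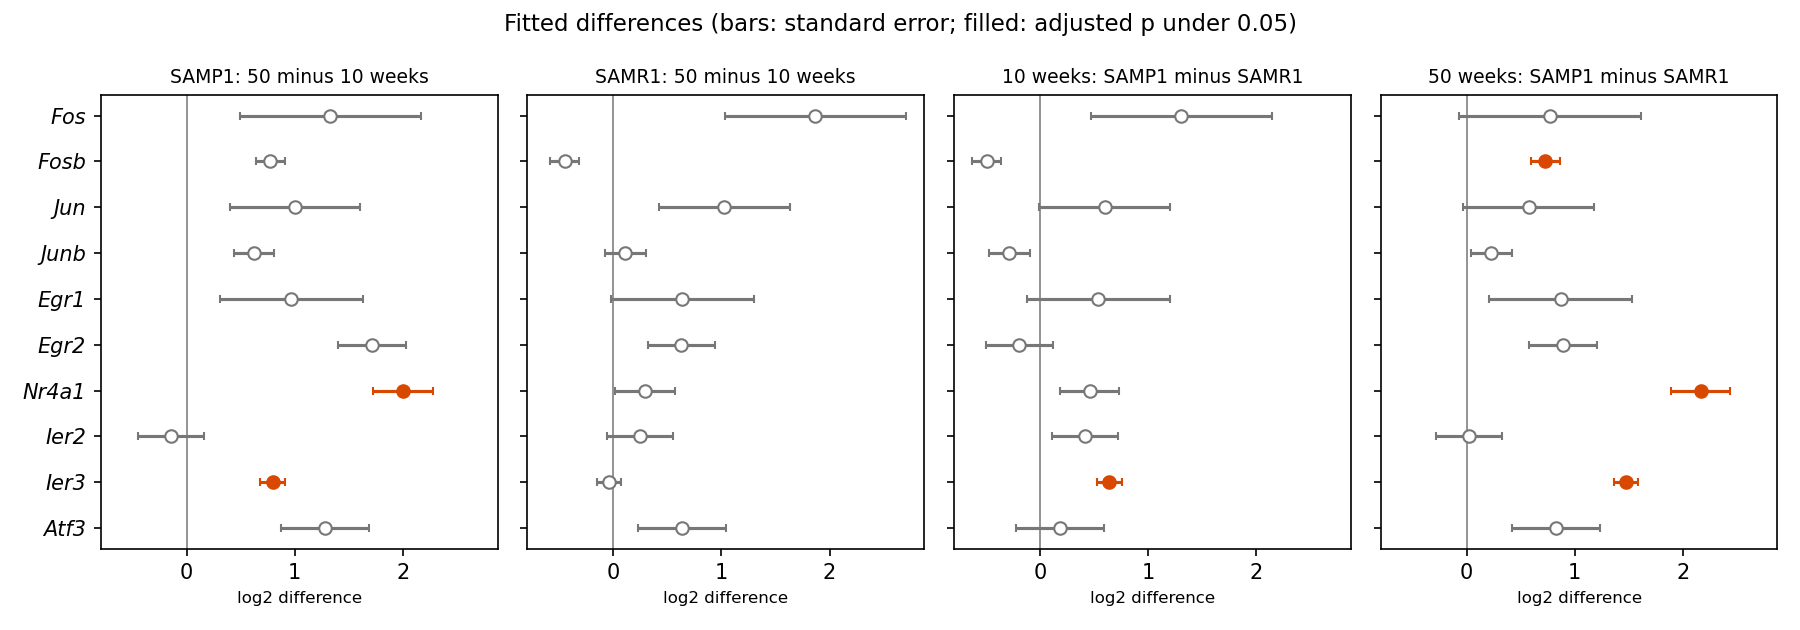
Fitted log2 difference of each member (x axis) for the age change of each strain and the strain difference at each age, with bars of 1 standard error from limma. Filled points passed at an adjusted p under 0.05. Nr4a1 at 2.16 and Ier3 at 1.48 are far from 0 at 50 weeks beside their errors, whereas the bar of Fos crosses 0 there.

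The age change was tested for a difference between the strains. Of the 10 members 0 passed this interaction test in limma and 4 had an unadjusted p under 0.05, while 0.00883% of all genes passed and 6.42% had such an unadjusted p. The difference between the age changes, SAMP1 minus SAMR1, was 1.70 ± 0.391 for Nr4a1 (adjusted p = 0.546), 0.83 ± 0.16 for Ier3 (adjusted p = 0.481), 1.08 ± 0.442 for Egr2 (adjusted p = 0.775) and 1.22 ± 0.19 for Fosb (adjusted p = 0.374). For Fos and Jun it was -0.54 ± 1.19 and -0.02 ± 0.853. Rises in SAMP1 that passed are thus not shown to exceed those in SAMR1.

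The spread between mice of 1 group differed among members. Within SAMP1 at 50 weeks 4 of 10 members, Fos, Jun, Egr1 and Atf3, differed by more than 1 log2 unit between the mice, against 2.71% of all genes. Replicate 4 minus replicate 1 was -2.45 for Fos, -2.01 for Jun, -2.21 for Egr1, -0.87 for Ier2 and -0.60 for Junb. In contrast it was 1.00 for Atf3, 0.31 for Fosb, 0.20 for Egr2 and 0.0015 for Ier3, with Nr4a1 at -0.27. The size of the Fos difference was larger than in 99.92% of all genes, and that of Ier3 larger than in 0.57%.

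In SAMR1 at 10 weeks replicate 4 was higher than replicate 1 in 10 of 10 members, by a median of 0.42, with Fos apart by 1.64 (1 of 10 over 1 log2 unit, against 1.96% of all genes). Within SAMR1 at 50 weeks and SAMP1 at 10 weeks 0 of 10 differed by more than 1 log2 unit (2.77% and 1.64% of all genes), and the median size of the difference was 0.13 and 0.22, against 0.73 in SAMP1 at 50 weeks. Over all groups the pooled within-group SD was 1.04 for Fos, 0.82 for Egr1 and 0.75 for Jun, and 0.10 for Ier3, where the median over all genes was 0.14. Replicate 1 of SAMP1 at 50 weeks was the highest array for 6 members and replicate 4 for the other 4, while replicate 1 of SAMR1 at 10 weeks was the lowest for 5.

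**Figure D3:**
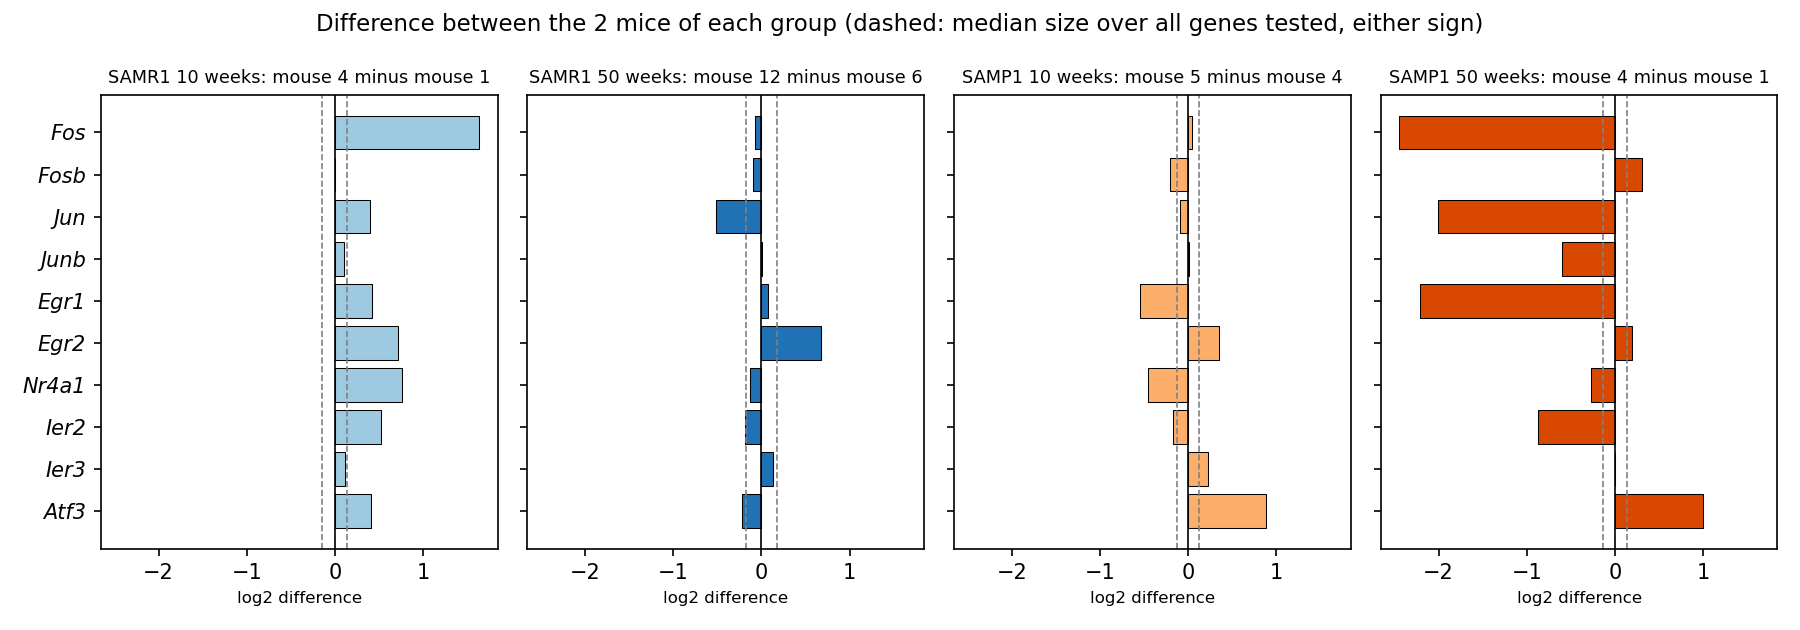
Log2 difference between the 2 mice of each group for each member (bars), with dashed lines at the median size over all genes tested. In SAMP1 at 50 weeks Fos, Jun and Egr1 extend beyond -2 while Atf3 reaches 1.00, and in SAMR1 at 10 weeks all 10 bars point the same way.

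Leaving out replicate 1 of SAMP1 at 50 weeks separated the members. The strain difference at 50 weeks turned to -0.46 for Fos, -0.43 for Jun, -0.24 for Egr1, -0.07 for Junb and -0.41 for Ier2. It stayed at 2.03 for Nr4a1, 1.48 for Ier3 and 0.88 for Fosb, all of which still passed. Leaving out replicate 4 instead put Egr1 past the threshold for strain at 50 weeks (1.98, adjusted p = 0.0355), and Jun (1.52, adjusted p = 0.0242) and Egr1 (1.36, adjusted p = 0.0399) for age averaged over strains. With 1 mouse left in a group, its spread was assumed to equal that of the other groups.

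Both slide rows held 1 array of each group, so each comparison was also taken within a row. The strain difference of Nr4a1 at 50 weeks was 1.96 in row 1 and 2.36 in row 2, and that of Ier3 1.54 and 1.41. For Fos it was -0.49 in row 1 and 2.03 in row 2, and for Jun -0.69 and 1.84. With slide row as a block, Nr4a1 and Ier3 still passed for strain at 50 weeks, whereas the Ier3 calls for the SAMP1 age change (adjusted p = 0.0933) and for strain at 10 weeks (adjusted p = 0.0824) and the Fosb call (adjusted p = 0.0666) did not.

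Other genes of the response came from lists of known pathway members. Of 35 further immediate early genes 32 were tested, and for age averaged over strains 2 rose. Nr4a2, a close relative of Nr4a1, rose by 0.80 ± 0.115 (adjusted p = 0.0267), and Arc, an activity-regulated gene best known in neurons, by 1.00 ± 0.146 (adjusted p = 0.0268). At 50 weeks Nr4a2 was higher in SAMP1 by 1.07 ± 0.163 (adjusted p = 0.0169), and Klf10, a TGF-beta inducible repressor, was lower there (-1.04 ± 0.173, adjusted p = 0.0233). The median of the 32 genes was 0.16 for age in SAMP1, with 0 passing and 7 at an unadjusted p under 0.05.

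Nr4a2 stood at -4.59 and -4.16 in SAMR1 at 10 weeks, -3.77 and -3.74 in SAMR1 at 50 weeks, -3.53 and -3.78 in SAMP1 at 10 weeks, and -2.64 and -2.72 in SAMP1 at 50 weeks. Like Nr4a1, it was highest in both older SAMP1 mice with little between them. Ccn1, a matricellular gene induced with Fos, was at 2.35 in replicate 1 and 1.06 in replicate 4 of SAMP1 at 50 weeks. Both lay above 0.49 and 0.41 in the younger SAMP1 mice. In SAMR1 its means were -0.42 at 10 weeks and 1.00 at 50 weeks, a change of 1.42 ± 0.392 (adjusted p = 0.24). The age change of Ccn1 averaged over strains was 1.34 ± 0.277 (adjusted p = 0.0836). Gadd45g of the same list went the other way with age in SAMP1, by -1.35 ± 0.502 (adjusted p = 0.416), and did not pass. Within SAMP1 at 50 weeks 1 of the 32 genes differed by more than 1 log2 unit between the mice.

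Of 15 tested inhibitors that feed back on the response (DUSP phosphatases, ZFP36 proteins that speed mRNA decay, Sprouty and NAB proteins) 0 passed in limma in any of the 6 comparisons. For age in SAMP1 2 had an unadjusted p under 0.05 in limma, a count with no share over all genes beside it. Dusp1, which inactivates the kinases that induce Fos, was at 2.92 in replicate 1 and 2.05 in replicate 4 of SAMP1 at 50 weeks, but also at 2.28 and 2.89 in SAMR1 at 10 weeks. Of 22 upstream kinases and transcription factors 1 passed, Atf4, a factor of the integrated stress response, which rose by 0.41 ± 0.0696 for age averaged over strains (adjusted p = 0.0452).

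Heat shock genes, another fast response, had their own order among the mice. Of 15 tested 2 rose with age in SAMP1 and 1 in SAMR1, where Hspa1a was higher by 1.57 ± 0.235 (adjusted p = 0.0489). Within 1 group, 14 of the 15 were higher in replicate 4 than in replicate 1 of SAMP1 at 50 weeks, by a median of 0.38. Hspa1a, the inducible 70-kDa chaperone, stood at 2.57 and 2.73 in SAMR1 at 10 weeks, 4.06 and 4.36 in SAMR1 at 50 weeks, 1.95 and 2.35 in SAMP1 at 10 weeks, and 4.67 and 5.26 in SAMP1 at 50 weeks. Thus the older mice of both strains were above all younger ones, and the mouse with the highest Fos, Jun and Egr1 did not have the highest Hspa1a.

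Markers of blood and immune cells varied beside the members. The summed signal of the 7 red cell genes tested, in multiples of the array's 75th percentile, was 346.6 to 524.6 in SAMR1 at 10 weeks, 8.53 to 24.2 in SAMR1 at 50 weeks, 25.8 to 118.2 in SAMP1 at 10 weeks and 96.3 to 479.6 in SAMP1 at 50 weeks. Hba-a1, a haemoglobin alpha gene, was at 7.71 in replicate 1 and 5.29 in replicate 4 of SAMP1 at 50 weeks, so the mouse with more Fos also had more haemoglobin RNA. In SAMR1 at 10 weeks, where Fos was lowest, Hba-a1 was at 7.21 and 7.87. With haemoglobin as a covariate the strain difference at 50 weeks was 2.27 ± 0.55 for Nr4a1 (adjusted p = 0.268) and 1.23 ± 0.19 for Ier3 (adjusted p = 0.107).

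Of 8 B and plasma cell markers tested 6 rose with age in SAMP1 and 2 in SAMR1. Their summed signal was 1.29 to 1.80 in SAMR1 at 10 weeks, 14.4 to 14.6 in SAMR1 at 50 weeks, 1.05 to 1.18 in SAMP1 at 10 weeks and 7.25 to 9.71 in SAMP1 at 50 weeks. No tested marker was listed at 0, and 5 to 8 of the 8 were well above background on an array. Of 9 T cell markers 5 were higher in SAMP1 at 50 weeks, with a summed signal of 2.18 to 2.47 in SAMR1 and 3.52 to 3.76 in SAMP1. Cd8a, the largest of these differences, was not well above background in SAMR1 and was kept only through SAMP1 arrays. At 50 weeks it was at least 9.17-fold higher in SAMP1. It was already higher there at 10 weeks (4.56 ± 0.368, limma adjusted p = 0.00215). Of 12 macrophage and dendritic cell markers 3 were higher in SAMP1 at 10 weeks and 4 at 50 weeks. Their summed signal was 35.9 to 38.4 in SAMR1 at 10 weeks, 38.7 to 40.3 in SAMR1 at 50 weeks, 41.8 to 44.9 in SAMP1 at 10 weeks and 48.8 to 53.1 in SAMP1 at 50 weeks, so all SAMP1 arrays lay above all SAMR1 arrays, as for Ier3. The part of these immune cells in the difference of Nr4a1, Ier3 or any other member was not tested.

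Tubular injury genes were set beside the members as well. Of 14 tested 0 passed in limma for age in SAMP1, with 7 at an unadjusted p under 0.05 and a median of 0.73. In SAMR1 0 passed, with 3 at an unadjusted p under 0.05 in limma and a median of -0.05. The share of all genes at such a p was 12.4% for age in SAMR1 and was not taken for age in SAMP1. For age averaged over strains 2 rose, Cdkn1a, a cell cycle inhibitor, by 0.79 ± 0.129 (adjusted p = 0.0418) and Gdf15, a stress cytokine, by 0.97 ± 0.159 (adjusted p = 0.041). For strain at 50 weeks 1 was higher in SAMP1, Vim, an intermediate filament protein, by 0.64 ± 0.115 (adjusted p = 0.0302). Their part in the members' differences was not tested.

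**Figure D4:**
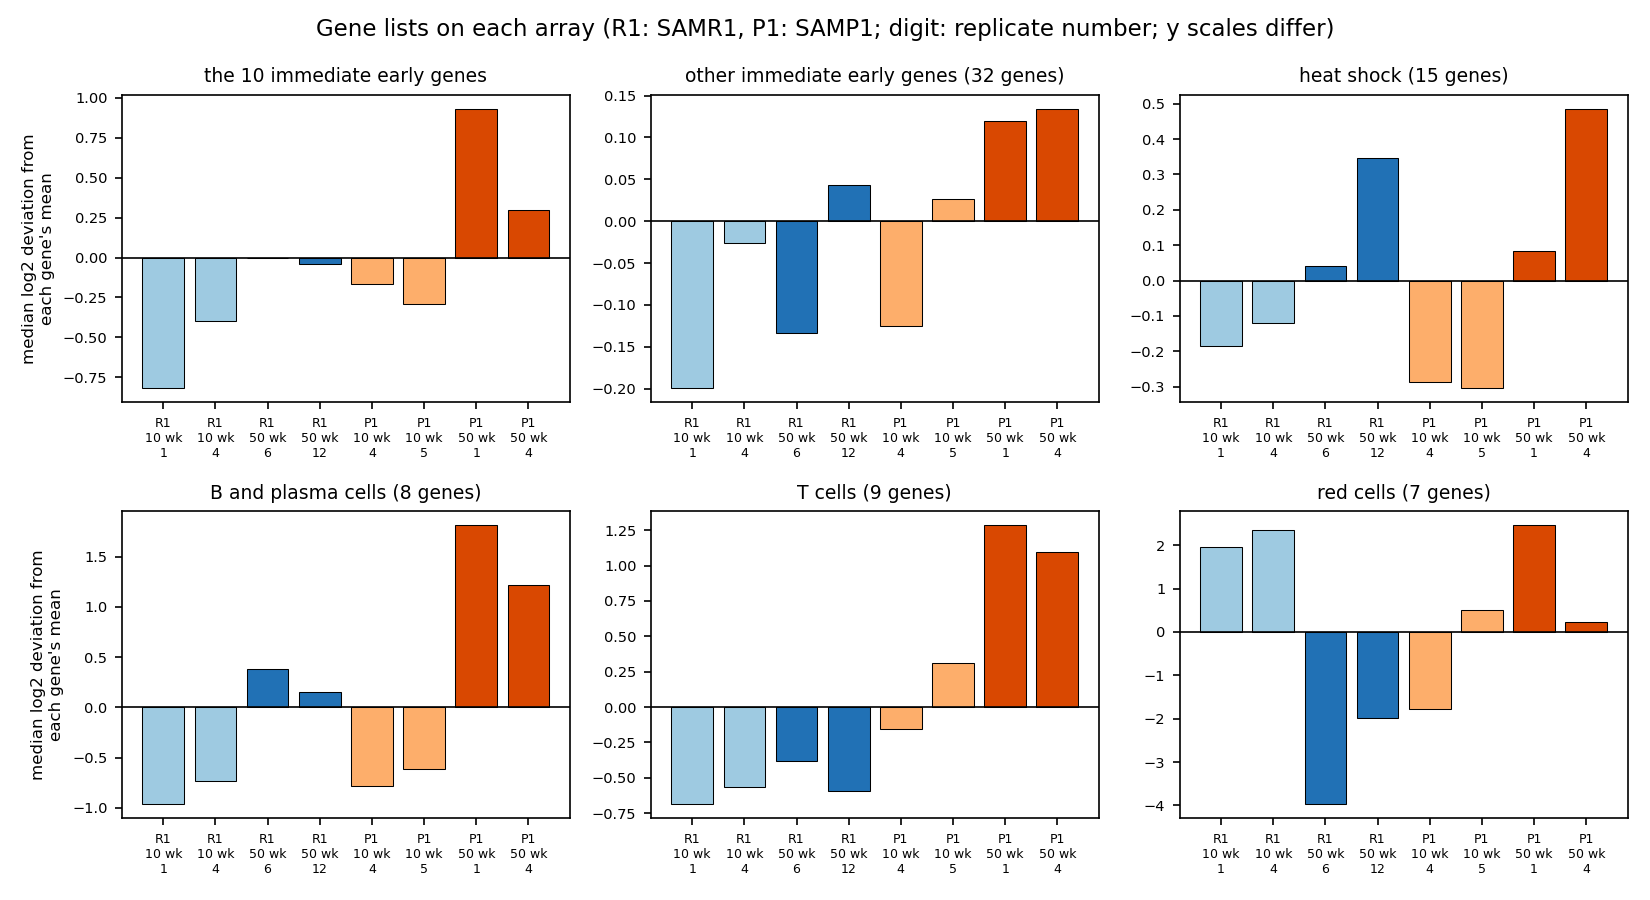
Median deviation of each gene list from its genes' means over the 8 arrays, in log2 units (y axis, a separate scale per panel), for each mouse (R1 is SAMR1, P1 is SAMP1, with age and replicate number). The members reach 0.93 in replicate 1 and 0.30 in replicate 4 of SAMP1 at 50 weeks, the B and T cell lists are high in both, and the red cell list is high in replicate 1 and in both SAMR1 mice at 10 weeks.

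The members were alike to different degrees. As a description over 8 arrays that fall into 4 groups, Pearson's r with the mean of the other members was 0.74 to 0.90 for 7 of the 10, namely Nr4a1, Fos, Jun, Egr1, Egr2, Junb and Ier3, and 0.37 to 0.62 for Fosb, Ier2 and Atf3. Between pairs r was 0.95 between Fos and Jun, 0.95 between Jun and Egr1 and 0.91 between Fos and Egr1. It was 0.90 between Nr4a1 and Ier3 and 0.85 between Egr2 and Atf3, and Nr4a1 had 0.71 with Fos, 0.69 with Jun and 0.72 with Egr1. Fosb and Fos had r = 0.02, and Atf3 and Ier2 had r = -0.11.

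Genes most like the mean of the members, among 5988 that varied with an SD of at least 0.3, were ranked by r over the same 8 arrays. They were Fcmr, the IgM receptor (r = 0.98), Cd79b, a B cell receptor subunit (0.97), the blood cell kinase Map4k1 (0.97), the drug transporter Abcb1a (0.97), the cytokine Lta (0.95), the matrix protein Comp (0.95), Itih1 and Itih3 (0.95 and 0.95), Btg2, itself an immediate early gene (0.94), and 1 unnamed transcript. Without replicate 1 of SAMP1 at 50 weeks, over 7 arrays, r was 0.98 for Fcmr, 0.96 for Cd79b and 0.92 for Btg2. Cd79b was at -2.45 and -1.98 in SAMR1 at 10 weeks, -1.45 and -1.41 in SAMR1 at 50 weeks, -1.97 and -1.87 in SAMP1 at 10 weeks, and 0.17 and -0.29 in SAMP1 at 50 weeks. It shared with the members' mean a low in SAMR1 at 10 weeks and a high in both older SAMP1 mice.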

How the data were processed

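The authors deposited each array's scanner file, with spot intensity values from Agilent Feature Extraction (version 12.0.3.1 in the submitters' processing notes). The processed intensity was background-subtracted within each array and not normalized between arrays, per the file headers. Marks for outlier spots and for being well above background were used as deposited. The authors' deposited value table is on a log2 scale and served as an alternative. Its scale, centring and sign are not given in the sources used here. They were taken from a correlation of 0.999 per array with the level defined below, after each probe's median was removed, and the column medians were -0.048 to 0.0591.

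Each array held 59305 spots for 56605 probes that were not controls. Here the log2 processed intensity, less that of the 75th percentile of the array, was averaged per probe without outlier spots. Probes well above background on both arrays of a group were kept (35375), and a gene was its brightest kept probe on average. Limma 3.58.1 in R 4.3.3 fitted 1 coefficient per group over all 8 arrays, 2-sided, for 6 contrasts, with 4 residual degrees of freedom. It was tested on simulated data. For 200 genes given a change of 1, 2 or 3 log2 units for age in SAMP1, among 22658, 54%, 85.5% and 94% were recovered. The changed genes were drawn at random and the noise was independent between genes. The members' median within-group SD was 0.37, against 0.14 for all genes, so these rates do not describe the members. All arrays lay on 1 slide in 1 scan, and their number limits the precision. The labels give each array a mouse of its own. Members and lists were chosen with earlier results of these data known. All members are named. Of each list the genes that passed, and also the 2 that changed most in an age comparison, could be named. So could the 10 genes most like the members. Not all such genes are named. Ccn1, Gadd45g and Dusp1 came by the size of their age change, Dusp1 through SAMR1 (-0.55 ± 0.351). The alternatives were normexp with an offset of 50, quantile normalization, other filters and probe rules, slide row, haemoglobin, the value table, fewer groups, and each array left out in turn. Leaving replicate 1 of SAMP1 at 50 weeks out of the likeness r was added after seeing the data. The file headers place probes on mm9, and exons, UTRs and strain variants under probes were not analysed here.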

Additional observations from a re-analysis of the deposited data

Results flagged for a closer look

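Fosb was the member whose mice moved in opposite directions. Both SAMP1 mice of 50 weeks lay above both of 10 weeks, while both SAMR1 mice of 50 weeks lay below both of 10 weeks. Taken singly, the first held for 20.8% of all genes tested and the second for 22.6%. The share of genes with both was not counted, so the pattern is not shown to be rare. The difference between the age changes was 1.22 ± 0.19, which is also the strain difference at 50 weeks minus that at 10 weeks (1.22). In limma's interaction test it had an unadjusted p of 0.000561 and did not pass over all genes (adjusted p = 0.374). Over all alternatives the difference kept its sign but ran from 0.16 to 1.89, and Fosb was dim on all arrays.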

How the results depend on the processing

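Counts of members that passed were 2, 0, 1, 1, 3 and 0 for age in SAMP1, age in SAMR1, age averaged over strains, strain at 10 weeks, strain at 50 weeks and the interaction. With no filter on dim probes 0 passed for age in SAMP1, for averaged age and for strain at 10 weeks. With slide row as a block 1 passed for age in SAMP1 and 0 for strain at 10 weeks. With haemoglobin as a covariate 0 passed in each. With only the compared groups 0 passed for age in SAMP1 and for strain at 10 weeks. When all kept probes were fitted 1 passed for age in SAMP1 and 0 for averaged age. With normexp 2 passed for averaged age.

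The members' median moved to 0.68, 0.16, 0.37, 0.43 and 0.30 with normexp (age in SAMP1, age in SAMR1, averaged age, strain at 50 weeks, interaction), and to 0.59, 0.072 and -0.044 with haemoglobin (age in SAMP1, strain at 50 weeks, interaction). With each array left out in turn the count was 0 to 1 for age in SAMP1, 0 to 2 for averaged age, 0 to 0 for strain at 10 weeks and 1 to 3 for strain at 50 weeks. The median ran over 0.56 to 1.27, 0.17 to 0.76, 0.45 to 0.99, 0.12 to 0.69, 0.41 to 1.13 and 0.45 to 0.91 in the order of the 6 comparisons.

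Signs turned with haemoglobin as a covariate for strain at 50 weeks in Fos (-1.02), Jun (-0.42), Junb (-0.17), Egr1 (-0.25) and Ier2 (-0.38), for strain at 10 weeks in Junb (0.0064) and Egr2 (0.23), for age in SAMR1 in Ier3 (0.26) and for the interaction in Junb (-0.18) and Egr1 (-1.59). The mean of all kept probes turned Junb for strain at 10 weeks (0.044) and Ier2 for strain at 50 weeks (-0.38), and normexp turned the interaction of Fos (0.19). These member values had not passed. The cause was not tested.

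With each array left out in turn the sign also turned for members that had not passed, and their values ran over these ranges. For age in SAMP1 they were -0.0023 to 2.01 (Jun), -0.14 to 2.08 (Egr1) and -0.57 to 0.29 (Ier2). For age in SAMR1 they were -0.084 to 0.67 (Nr4a1), -0.0094 to 0.51 (Ier2) and -0.10 to 0.028 (Ier3), and for averaged age -0.16 to 0.27 (Ier2). For strain at 10 weeks they were -0.25 to 0.63 (Atf3) and -0.55 to 0.17 (Egr2). For strain at 50 weeks they were -0.46 to 2.00 (Fos), -0.43 to 1.58 (Jun), -0.069 to 0.53 (Junb), -0.24 to 1.98 (Egr1) and -0.41 to 0.46 (Ier2). For the interaction they were -1.77 to 0.69 (Fos), -1.03 to 0.98 (Jun), -0.78 to 1.44 (Egr1) and -0.82 to 0.043 (Ier2).

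Over all alternatives limma's adjusted p for strain at 50 weeks was 0.000203 to 0.107 for Ier3, 0.00193 to 0.268 for Nr4a1 and 0.0234 to 0.334 for Fosb. It was 0.0141 to 0.195 for Ier3 at 10 weeks, and for age in SAMP1 0.0122 to 0.21 for Nr4a1 and 0.0118 to 0.227 for Ier3.

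No paired analysis was possible because each array came from a mouse of its own, and replicate numbers do not pair mice between groups. Slide row, which pairs arrays by position and not by mouse, was fitted as a block in its place. Every group mean rests on 2 mice, and for Fosb the background correction and its offset were not changed one at a time.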
